A study of Mus musculus with 6 samples.

Results

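The 10 goblet cell mucus genes described here, Muc5ac, Muc5b, Agr2, Spdef, Itln1, Tff2, Clca1, Fcgbp, Slc26a4 and Gcnt3, were taken by name among 16537 genes measured on arrays of whole mouse lung. They were chosen with earlier results of these data known. All 10 were measured, each by 1 probe set annotated to that gene alone. The samples were 3 of lung labelled Falcor-null, meaning null for Falcor, a gene of a long non-coding RNA, and 3 of wild-type lung. Every mouse carried the strain label CD1_C57Bl6_mix and had been given naphthalene, a compound that kills the club cells of the airway, so no array shows uninjured lung. Replicates 1 to 3 labelled Falcor-null were marked as taken 31, 32 and 33 days after the compound, and wild-type replicates 1 to 3 as taken 28, 29 and 30 days after it. Day and genotype therefore cannot be told apart if these are true days. The sources used here do not give the age of the mice, the altered part of Falcor, or whether each sample came from its own animal, so that p-values reflect only how these samples varied, and that variation may be technical.

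Airway mucus is a gel of very large secreted glycoproteins, the mucins, that traps particles and is moved out by cilia. Goblet cells fold mucins in the endoplasmic reticulum, add sugar chains in the Golgi, pack them in granules and release them with other secreted proteins and salts. Few goblet cells line the airways of a healthy mouse lung, and their number increases in allergic inflammation, when the cytokine interleukin 13 signals through Stat6 and the transcription factor Spdef is induced. Foxa2, the gene that the series title places under Falcor's control, is known in mouse lung as a factor that holds goblet cell differentiation back.

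The targeted gene went against the labels: the Falcor probe set (symbol 9030622O22Rik) read 6.82, 6.34 and 6.32 on the arrays labelled Falcor-null and 4.69, 5.01 and 5.45 on the wild-type arrays, in log2 signal. That is a log2 difference of 1.44 (SE 0.21, limma adjusted p 0.0423), and whether this probe set lies in the altered part is not known here, so every direction below is that of the arrays as labelled. Array medians lay between 6.69 and 6.74, and the lowest signal of an array was 2.09 to 2.42 on those labelled Falcor-null and 3.19 to 3.22 on wild-type arrays. Markers of lung were bright on all 6 arrays, with the surfactant gene Sftpc between 13.59 and 13.61. No detection calls were used, and how far a given probe set stood above background is unknown. Of the 10 genes, 6 (Muc5ac, Agr2, Itln1, Clca1, Fcgbp and Gcnt3) had a mean below the 30th percentile of probe sets (5.88), where differences are compressed. Among the 4731 genes below that level the median log2 difference was 0.04, and 1.99% of them had a difference of -0.5 or lower.

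Most of the mucus genes read lower on the arrays labelled Falcor-null, but 1 of the 10 passed the test. Itln1, a secreted lectin that binds microbial sugars, fell, as 1 of 10 members against 0.556% of all genes passing at a limma adjusted p under 0.05 (0.46% as lower). The difference was negative for 8 of the 10, and negative for 49.2% of all genes. At an unadjusted p under 0.05, 6 of the 10 were lower (Itln1, Agr2, Slc26a4, Tff2, Clca1 and Muc5ac), against 7.65% of all genes. A log2 difference of -0.5 or lower was reached by 7 of the 10 and by 2.95% of all genes, and one of -1 or lower by 4 of the 10 and by 0.593% of all genes. Every array labelled Falcor-null lay below every wild-type array for 4 of the 10 (Itln1, Agr2, Slc26a4 and Clca1), and for 10.6% of all genes. The median log2 difference of the 10 was -0.76, against 0.0026 over all 16537 genes. Because the 10 were chosen with earlier results of these data known, these shares describe them and are not independent evidence. In whole lung, fewer of the cells that make these RNAs, less RNA per cell and less airway in the sample cannot be told apart.

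**Figure D1:**
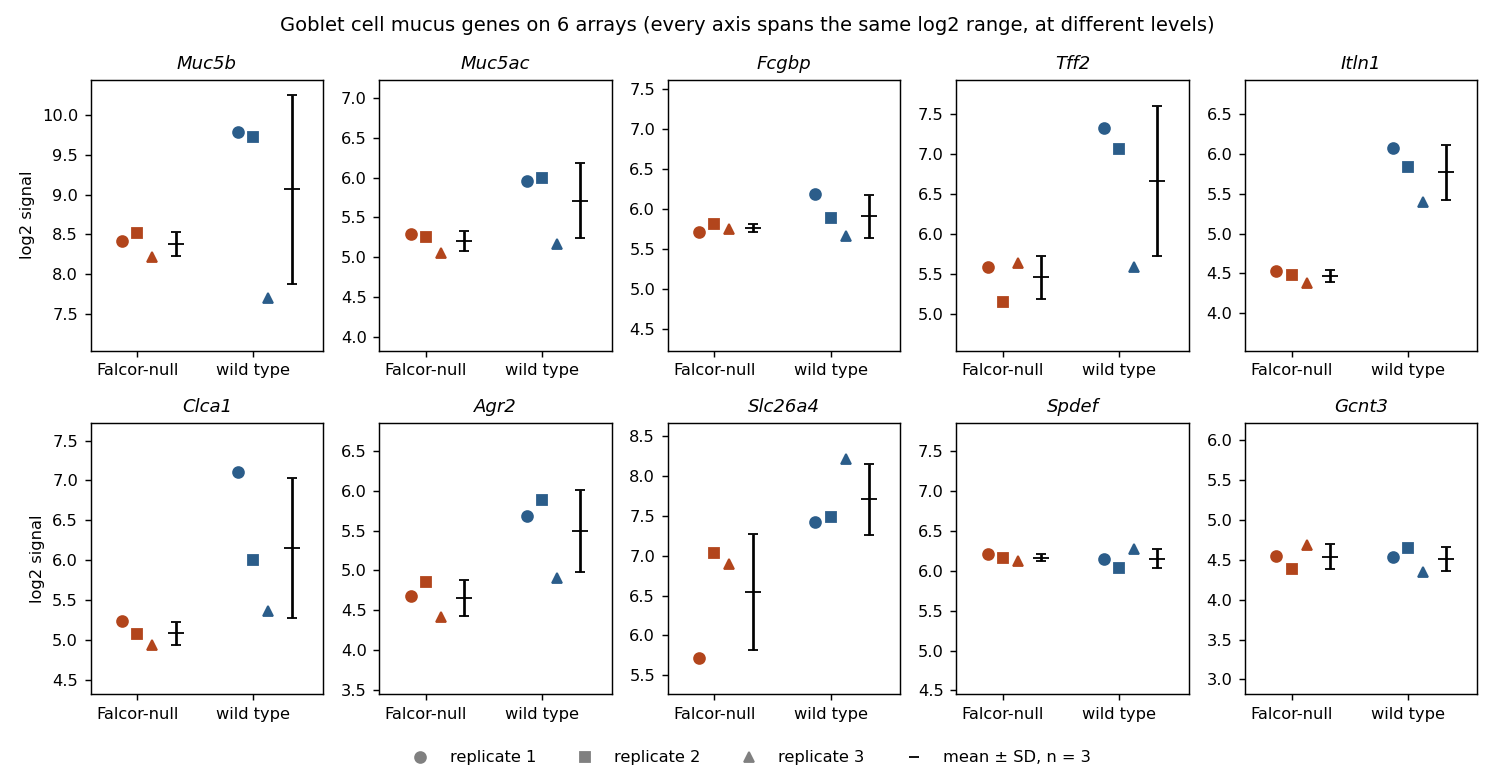
Log2 signal (vertical axis) of each goblet cell mucus gene on the 3 arrays labelled Falcor-null (left in each panel) and the 3 wild-type arrays (right), with the mean ± SD (n = 3) beside them. Wild type replicate 3 (triangle) lies far below the other wild-type arrays for Muc5b and Tff2, at 7.70 and 5.59, and above them for Slc26a4, at 8.22.

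Neither gel-forming mucin passed with all 6 arrays. Muc5b, the gel-forming mucin that mouse airways make at rest, read 8.42, 8.51 and 8.21 on the arrays labelled Falcor-null, against 9.78, 9.72 and 7.70 on the wild-type arrays. The wild-type group thus held both the highest and the lowest values, and the groups overlapped. Its log2 difference was -0.69 (SE 0.51, 95% interval -1.88 to 0.51, limma adjusted p 0.607). Without wild type replicate 3 the difference was -1.37 (SE 0.11), a level 2.59-fold lower, and passed with an adjusted p of 0.0167, while without wild type replicate 1 it was -0.33.

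Muc5ac, the mucin that mouse airways add when goblet cells multiply, read 5.30, 5.26 and 5.06 on the arrays labelled Falcor-null and 5.96, 6.0 and 5.17 on the wild-type arrays. Wild type replicate 3 sat among the arrays labelled Falcor-null, and the groups overlapped. The log2 difference of -0.51 (95% interval -1.01 to -0.0034) did not pass (limma adjusted p 0.361), nor did that of -0.78 without wild type replicate 3 (adjusted p 0.0616). In the RefSeq gene order of GRCm38.p6, Muc6, Muc2, Muc5ac and Muc5b stand next to one another. The other mucin genes of that cluster gave log2 differences of 0.28 for Muc2, the main mucin of the intestine, and -0.07 for Muc6, a stomach mucin (adjusted p 0.386 and 0.810).

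Fcgbp, a large protein that is bound into mucus beside the mucins, read 5.72, 5.81 and 5.75 on the arrays labelled Falcor-null and 6.19, 5.88 and 5.66 on the wild-type arrays. The groups overlapped, with wild type replicate 3 the lowest of the 6. The log2 difference was -0.15 (95% interval -0.46 to 0.16, limma adjusted p 0.683).

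Among the proteins released with mucus, Itln1 was the one to pass. It read 4.53, 4.47 and 4.38 on the arrays labelled Falcor-null and 6.08, 5.84 and 5.40 on the wild-type arrays. Every array labelled Falcor-null lay below every wild-type array, as it did for 10.6% of all genes. Itln1 was 2.47-fold lower (log2 difference -1.31, SE 0.16, 95% interval -1.69 to -0.93, limma adjusted p 0.0265). The call did not hold when replicate 1, 2 or 3 labelled Falcor-null or wild type replicate 2 was left out, with adjusted p-values of 0.0822, 0.0987, 0.0764 and 0.101 and log2 differences between -1.34 and -1.27. It held without wild type replicate 3, at -1.49 (adjusted p 0.012). Mice carry close copies of this gene whose number differs between strains, so which copy the probe set read is uncertain, and the level on the arrays labelled Falcor-null was near the lowest mean of any gene (4.34).

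Tff2, a trefoil peptide that is released with mucus and helps epithelium close over injury, read 5.59, 5.14 and 5.63 on the arrays labelled Falcor-null, against 7.33, 7.07 and 5.59 on the wild-type arrays. Wild type replicate 3 stood inside the range of the arrays labelled Falcor-null, while both other wild-type arrays stood well above it. The log2 difference of -1.21 (SE 0.42, 95% interval -2.19 to -0.23) had a limma adjusted p of 0.265. Without wild type replicate 3 it was -1.74 (SE 0.17), a level 3.35-fold lower, with an adjusted p of 0.0274. Its neighbours in gene order, the trefoil genes Tff1 and Tff3, gave 0.09 and 0.04 (adjusted p 0.777 and 0.948).

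Clca1, a protease that goblet cells secrete and that acts on the mucus gel, read 5.23, 5.07 and 4.94 on the arrays labelled Falcor-null and 7.10, 6.0 and 5.37 on the wild-type arrays. The groups did not overlap, but the wild-type values spread widely, from replicate 1 at the top to replicate 3 just above the arrays labelled Falcor-null. The log2 difference was -1.07 (SE 0.38, 95% interval -1.97 to -0.18, limma adjusted p 0.277). It came to -0.60 without wild type replicate 1 and -1.47 without wild type replicate 3, and passed in neither case (adjusted p 0.272 and 0.166).

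Of the genes that make mucus rather than form it, Agr2 and Slc26a4 did not overlap between the groups. Every array labelled Falcor-null was lower, as for 10.6% of all genes. Agr2, a disulfide isomerase of the endoplasmic reticulum that mouse intestine and airway need to make mucins, read 4.68, 4.86 and 4.41 on the arrays labelled Falcor-null and 5.68, 5.89 and 4.91 on the wild-type arrays. Replicate 2 labelled Falcor-null and wild type replicate 3 lay close together at the border of the groups. The log2 difference of -0.84 (SE 0.25, 95% interval -1.42 to -0.26) did not pass (limma adjusted p 0.207), nor did that of -1.13 without wild type replicate 3 (adjusted p 0.06). Agr3, its relative and neighbour in gene order, differed by 0.20 (adjusted p 0.571).

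Slc26a4, the chloride and bicarbonate exchanger pendrin that conditions airway surface fluid, read 5.72, 7.04 and 6.89 on the arrays labelled Falcor-null and 7.42, 7.48 and 8.22 on the wild-type arrays. Here wild type replicate 3 was the highest of the 6, the reverse of its place for Muc5b and Tff2, and replicate 1 labelled Falcor-null was far below the others. The log2 difference was -1.16 (SE 0.37, 95% interval -2.01 to -0.31, limma adjusted p 0.227). It ranged from -1.40 to -0.74 over the fits that each left out 1 array, with none passing.

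Spdef, the ETS transcription factor at the head of the goblet cell program, read 6.21, 6.16 and 6.12 on the arrays labelled Falcor-null and 6.15, 6.04 and 6.27 on the wild-type arrays. The groups overlapped within a narrow band. Its log2 difference was 0.011 (SE 0.085, 95% interval -0.19 to 0.21, limma adjusted p 0.973). That interval does not reach the estimates for Itln1, Tff2, Clca1, Agr2 or Slc26a4. The interval of Clca1 (-1.97 to -0.18) overlaps it, however, and no difference between genes was tested. Wild type replicate 3, low for Muc5b and Muc5ac, gave the highest Spdef value within that narrow band.

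Gcnt3, the Golgi enzyme that branches mucin sugar chains, read 4.55, 4.39 and 4.69 on the arrays labelled Falcor-null and 4.54, 4.65 and 4.34 on the wild-type arrays. All 6 values were near the dim end of the scale and the groups overlapped, with a log2 difference of 0.03 (95% interval -0.23 to 0.30, limma adjusted p 0.939).

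**Figure D2:**
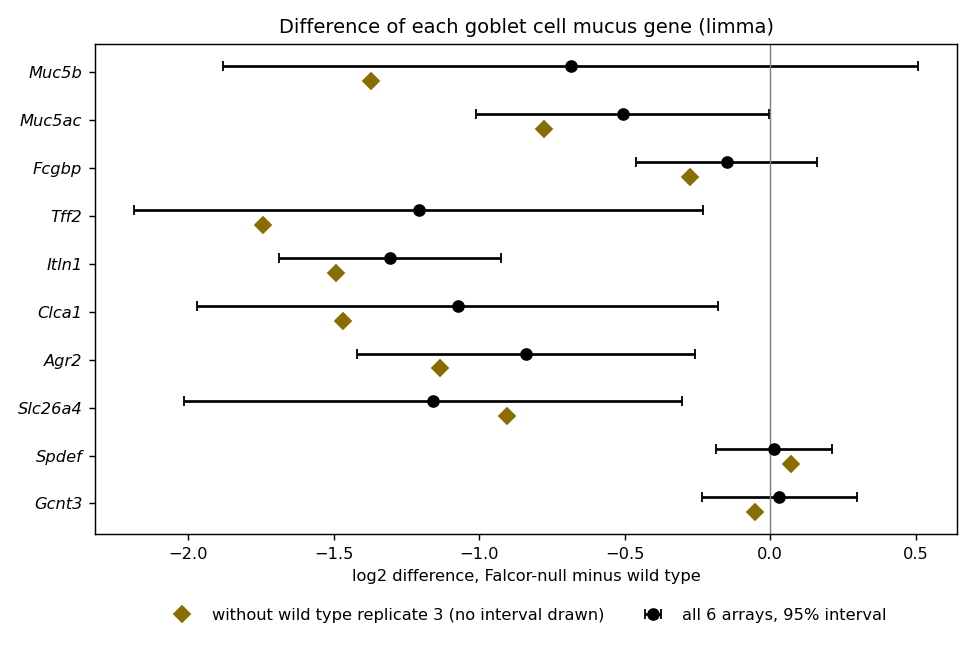
Log2 difference of arrays labelled Falcor-null minus wild type (horizontal axis) for each goblet cell mucus gene, with the 95% interval from limma over all 6 arrays (circles) and the difference without wild type replicate 3 (diamonds). Muc5b moves from -0.69 to -1.37 when that array is left out, whereas Spdef and Gcnt3 stay between -0.052 and 0.071.

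The promoters of these genes are shown because several members read lower together. RefSeq windows in the GRCm38.p6 build were given for 5 of the 10 genes, Itln1, Agr2, Slc26a4, Spdef and Fcgbp. The 250 bases before the start were searched on both strands for 4 motifs: AGGAT, an ETS site with the GGAT core that Spdef prefers, TGTTTAC for FOXA factors, TTC and GAA set 4 bases apart for Stat6, and TATAAA. Of these 5, the 3 genes whose groups did not overlap are printed 5′ to 3′ on the gene's strand, with matches in capitals. Spdef follows for contrast. The groups of Clca1 did not overlap either, but no window was given for it.
Itln1, chr1:171535295-171535544, minus strand: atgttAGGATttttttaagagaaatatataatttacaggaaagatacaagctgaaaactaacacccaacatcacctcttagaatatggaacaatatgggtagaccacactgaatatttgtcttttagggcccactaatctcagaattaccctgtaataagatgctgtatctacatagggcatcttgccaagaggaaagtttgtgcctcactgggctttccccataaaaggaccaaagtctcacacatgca
Agr2, chr12:35992675-35992924, plus strand: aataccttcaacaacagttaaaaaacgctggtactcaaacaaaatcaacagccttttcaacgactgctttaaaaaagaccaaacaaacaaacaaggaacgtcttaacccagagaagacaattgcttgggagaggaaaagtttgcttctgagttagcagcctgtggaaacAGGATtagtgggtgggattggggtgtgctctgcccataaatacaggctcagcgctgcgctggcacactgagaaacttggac
Slc26a4, chr12:31559985-31560234, minus strand: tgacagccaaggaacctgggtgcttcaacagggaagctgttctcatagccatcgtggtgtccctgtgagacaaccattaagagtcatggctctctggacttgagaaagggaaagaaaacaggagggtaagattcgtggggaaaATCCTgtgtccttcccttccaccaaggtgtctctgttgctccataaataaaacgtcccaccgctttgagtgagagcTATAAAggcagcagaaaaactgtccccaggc
Spdef, chr17:27728952-27729201, minus strand: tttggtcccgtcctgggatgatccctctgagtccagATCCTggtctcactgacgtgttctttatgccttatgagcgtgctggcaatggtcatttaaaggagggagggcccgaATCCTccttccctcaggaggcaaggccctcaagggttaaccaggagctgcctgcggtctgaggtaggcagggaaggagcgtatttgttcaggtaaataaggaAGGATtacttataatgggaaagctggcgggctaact
AGGAT or its reverse complement ATCCT was found in all 5 windows, 1 time in each of Itln1, Agr2, Slc26a4 and Fcgbp and 3 times in Spdef, and in 35.8% of 32851 windows of all genes. Slc26a4 alone of the 5 held TATAAA, 31 to 26 bases before its start (12.4% of all windows). Neither TGTTTAC nor the Stat6 motif occurred in any of the 5, against 3.17% and 5.85% of all windows. Spdef, whose family's motif is the one shared by these windows, did not itself pass the test here. Only the letters given above were searched, so other forms of a FOXA or Stat6 site were not counted. A match of letters is not a bound site.

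Wild type replicate 3 carried much of the spread of the mucus genes. It lay at least 0.5 log2 units below both other wild-type arrays for 5 of the 10 (Muc5b, Tff2, Muc5ac, Agr2 and Clca1), and for 0.701% of all genes. For Muc5b and Tff2 the gap to the nearer of those arrays was -2.02 and -1.48, beyond the gap of 1 that 0.139% of all genes reached. The 3 arrays labelled Falcor-null were closer to one another than the wild-type arrays in 9 of the 10 genes, Gcnt3 with nearly equal SDs (0.152 and 0.154) and Slc26a4 being the exception, against 51.4% of all genes. With that array left out, 3 of the 10 genes passed as lower on arrays labelled Falcor-null, Itln1, Muc5b and Tff2, against 0.224% of all genes (0.296% in either direction). In that fit 9 of the 10 differences were negative with a median of -1.02, against -0.0047 over all genes. All arrays labelled Falcor-null lay below wild type replicates 1 and 2 for 8 of the 10, all but Spdef and Gcnt3, and for 16.5% of all genes. That array had been pointed out in earlier results of these data, so the values without it are a description beside the full test.

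**Figure D3:**
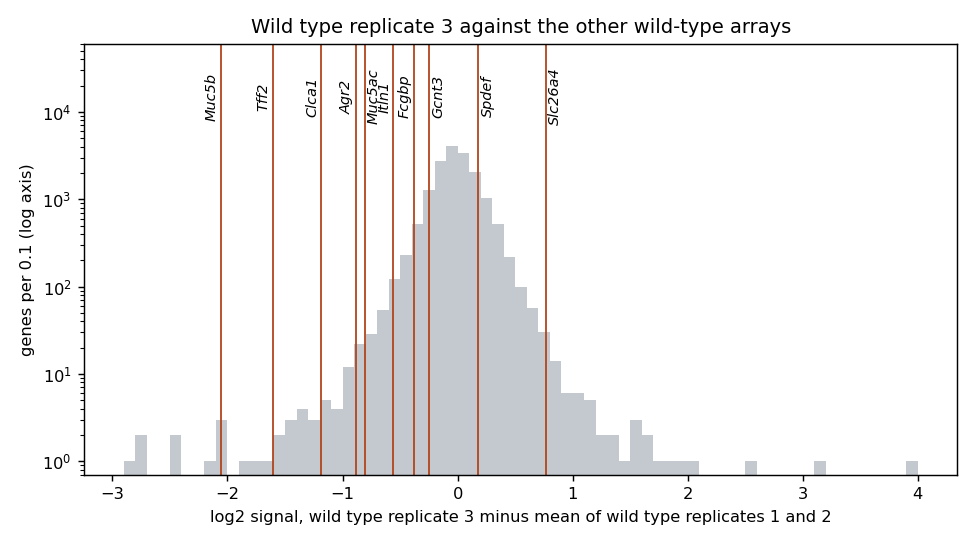
Number of genes (vertical log axis) by the log2 signal of wild type replicate 3 minus the mean of wild type replicates 1 and 2 (horizontal axis), with the 10 goblet cell mucus genes as labelled lines. Muc5b (-2.05) and Tff2 (-1.61) lie in the sparse left tail, and Slc26a4 (0.76) lies to the right.

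The genes closest in profile to the mucus genes were sought by the root mean square distance, in log2 units over the 6 arrays, between profiles centred on their own means. Closest to the median profile of the 10 were Unc93a (0.0965), the bradykinin receptor Bdkrb2 (0.113), the purine receptor P2ry1 (0.119), Pisd-ps3 (0.122) and the B cell gene Ms4a1 (0.139), followed by Ly6c2, Sh2d1a, Poli, H2aw and Pisd-ps2 (0.144 to 0.155). The median profile itself was -0.35, -0.20 and -0.41 on the arrays labelled Falcor-null and 0.56, 0.46 and -0.18 on the wild-type arrays. Among the members, Muc5ac lay 0.0953 from it. All other members lay farther from it than the genes just named, from 0.178 for Agr2 to 0.692 for Slc26a4. Nearness to this median is thus not nearness to most single members. For Muc5b alone the nearest gene was Bpifb1 (0.32), a secreted protein of the upper airway, ahead of Dubr (0.355), Ppp1r3a (0.37), Edn1 (0.385) and Pisd-ps3 (0.392).

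Bpifb1 read 8.10, 8.18 and 7.36 on the arrays labelled Falcor-null and 9.26, 9.31 and 6.50 on the wild-type arrays. Like Muc5b, it had its highest and its lowest values among the wild-type arrays, with replicate 3 the lowest of all (log2 difference -0.48, limma adjusted p 0.824). Its list of club cell markers and secreted airway products had 9 genes measured, 4 higher and 5 lower. Of these only Bpifa1, an antimicrobial secreted protein, passed (log2 difference -1.51, limma adjusted p 0.0383). Bpifa1 read 7.31, 6.84 and 6.85 on the arrays labelled Falcor-null and 8.25, 8.96 and 8.29 on the wild-type arrays, and it lost its call with any single array left out (adjusted p 0.0554 to 0.131). Reg3g, an antimicrobial lectin picked with its values in view, gave 6.75, 5.08 and 5.95 on the arrays labelled Falcor-null and 8.20, 8.48 and 6.19 on the wild-type arrays. Scgb3a1, a secretoglobin of the large airways chosen in the same way, read 10.92, 11.00 and 11.59 on the arrays labelled Falcor-null and 11.996, 11.94 and 11.11 on the wild-type arrays. Both shared the low wild type replicate 3 and did not pass (adjusted p 0.303 and 0.454). The defining club cell gene Scgb1a1 lay between 13.55 and 13.63 on all 6 arrays, near the top of the scale, where differences are compressed. The rest of the list gave log2 differences of 0.05 for Cyp2f2, -0.07 for Scgb3a2, 0.13 for Hp and 0.27 for Aldh3a1. None of them passed (limma adjusted p 0.465 to 0.867). Of these, Aldh3a1 was low on wild type replicate 3 (5.48, against 6.26 and 6.08 on wild-type replicates 1 and 2).

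**Figure D4:**
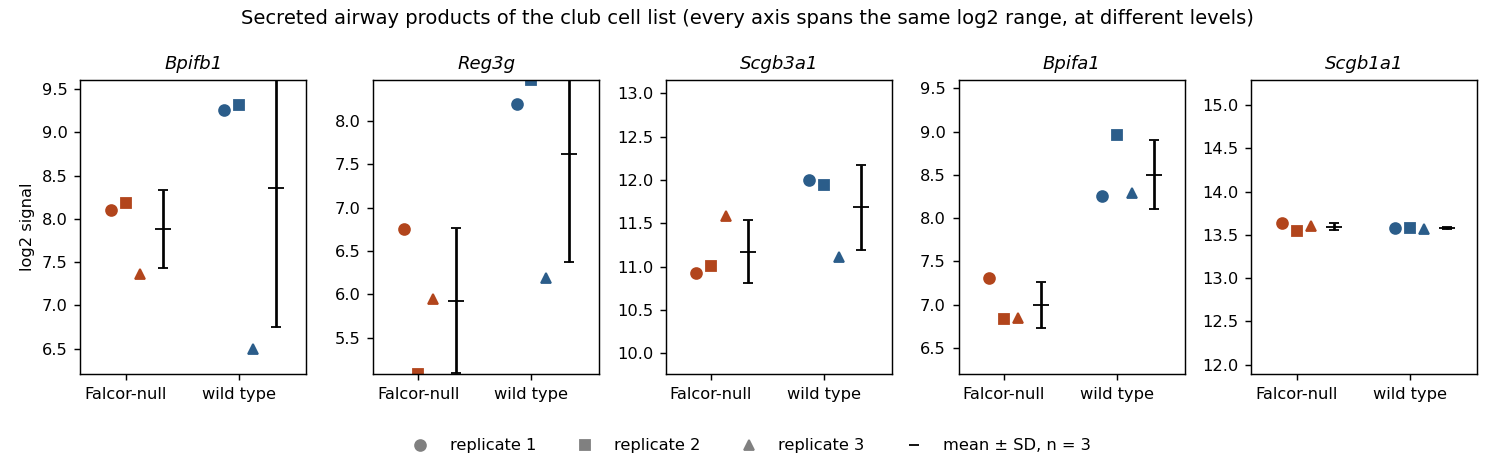
Log2 signal (vertical axis) of 5 secreted airway products on the arrays labelled Falcor-null (left in each panel) and the wild-type arrays (right), with mean ± SD (n = 3). Wild type replicate 3 (triangle) is low for Bpifb1, Reg3g and Scgb3a1, at 6.50, 6.19 and 11.11, and not for Bpifa1 or Scgb1a1.

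In the rest of the mucus pathway few genes passed. Other mucins had 9 genes measured, 5 higher and 4 lower, with a median log2 difference of 0.05 and none passing. Those with the smallest p were Muc2 (0.28), the cell surface mucin Muc4 (-0.27), Muc13 (0.16) and Muc3 (0.19), with limma adjusted p-values between 0.386 and 0.483. Muc1, the bright cell surface mucin of lung epithelium, gave -0.15 (adjusted p 0.568).

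Of 19 enzymes of mucin O-glycan synthesis, 9 were higher and 10 lower, with a median of -0.02. One passed, B3gnt3, a transferase that extends sugar chains. It read 6.92, 6.60 and 6.55 on the arrays labelled Falcor-null and 7.56, 7.39 and 7.52 on the wild-type arrays, without overlap. It was 1.74-fold lower (log2 difference -0.80, SE 0.11, limma adjusted p 0.0395), and its call was lost with any single array left out except replicate 1 labelled Falcor-null (adjusted p 0.0882 to 0.131).

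Mucin folding and packaging gave 7 higher and 10 lower of 17 measured, with a median of -0.04 and none passing. The chloride cotransporter Slc12a2 (0.52), the unfolded protein response factor Xbp1 (-0.39), the selenoprotein Selenom (0.30) and the chaperone Hyou1 (-0.33) had the smallest p, with limma adjusted p-values between 0.123 and 0.256. Granule exocytosis divided evenly, 7 higher and 7 lower of 14, with a median of 0.0036. Its leading genes by p were the fusion regulator Stxbp2 (-0.23), the granule SNARE Vamp8 (-0.18), the calcium sensor Syt2 (0.18) and the priming factor Unc13b (-0.13), with adjusted p-values between 0.366 and 0.561.

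Among 17 transcriptional regulators of goblet cells 11 were higher and 6 lower, with a median of 0.08 and none passing. Foxa2 read 8.19, 8.15 and 8.05 on the arrays labelled Falcor-null and 7.85, 7.89 and 7.84 on the wild-type arrays. Every array labelled Falcor-null lay above every wild-type array, as for 1482 of all 16537 genes. The log2 difference of Foxa2 was 0.27 (limma adjusted p 0.175). The Krüppel-like factors Klf5 (0.26) and Klf4 (0.38) and the ETS factor Ehf (-0.33) followed, with adjusted p-values between 0.238 and 0.387.

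The type 2 cytokine pathway, which drives goblet cells in allergic lung, had 6 higher and 10 lower of 16 genes measured, with a median of -0.05. The T cell attractant Ccl17 was its one gene to pass, at 6.01, 6.46 and 6.94 on the arrays labelled Falcor-null and 8.33, 8.35 and 8.15 on the wild-type arrays. It was 3.50-fold lower (log2 difference -1.81, SE 0.21, limma adjusted p 0.0212), and lost its call without replicate 2 labelled Falcor-null or any 1 wild-type array (adjusted p 0.0554 to 0.0906). Of the 16 genes, 5 had a limma unadjusted p under 0.05 in either direction, as did 2275 of all 16537 genes. Ccl17, Chil3, Il13ra1 and Il33 were lower on the arrays labelled Falcor-null, and Postn was higher (log2 difference 0.27). Beside Ccl17, the smallest p belonged to the macrophage protein Chil3 (-1.12), the interleukin 13 receptor subunit Il13ra1 (-0.27) and the alarmin Il33 (-0.79), with adjusted p-values of 0.0748, 0.226 and 0.272. Chil3, Il13ra1, Il33, Postn and the next 2 genes were chosen after their values were seen. The cytokine gene Il13 gave -0.04 and its signalling factor Stat6 -0.14, with adjusted p-values of 0.908 and 0.577. Il4 and Il5 had no probe set annotated to them alone and were not analysed here.

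**Figure D5:**
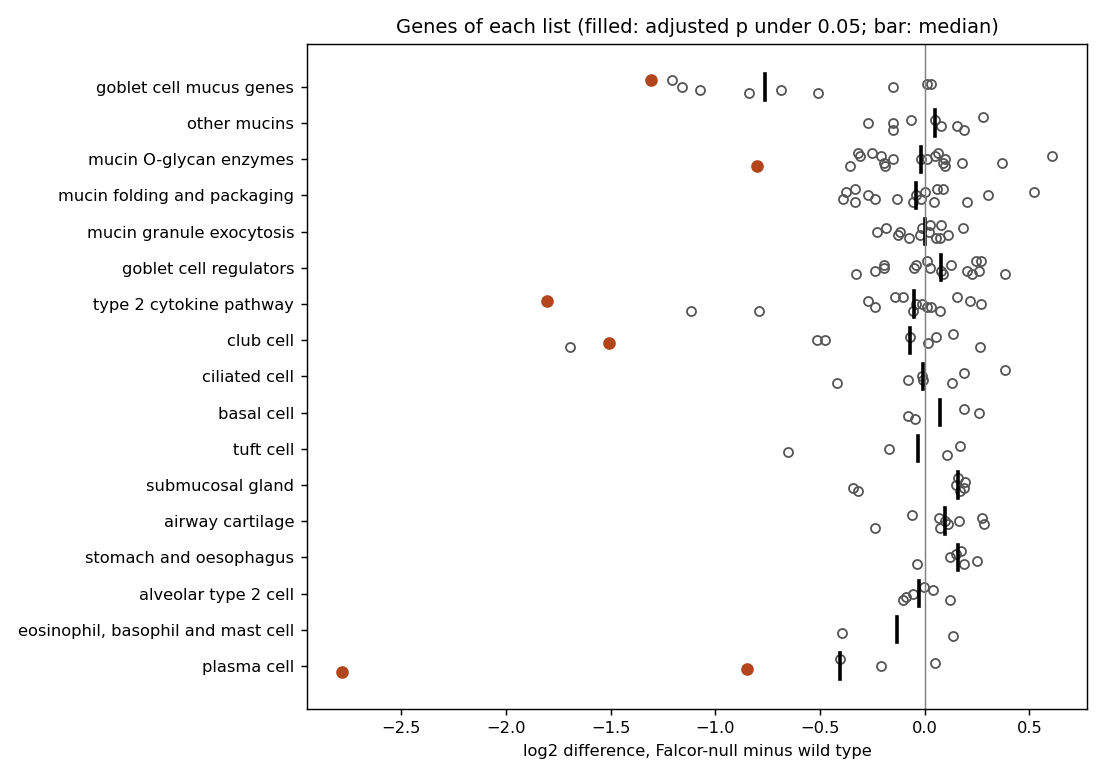
Log2 difference of arrays labelled Falcor-null minus wild type (horizontal axis) for each measured gene of the 17 lists (vertical axis), filled where the limma adjusted p was under 0.05, with a bar at each list's median. The goblet cell mucus genes have a median of -0.76, the other mucins 0.05 and the plasma cell markers -0.40.

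Markers of other tissue that a lung sample could hold were read beside these results, as the sum of the linear signals of each list. The club cell list summed to 24717 to 26539 on the arrays labelled Falcor-null and 24892 to 28358 on the wild-type arrays, with wild type replicate 3 at the lower end. Scgb1a1 gave 43.3% to 48.8% of these sums. Without Scgb1a1 they were 12724.5 to 13839.5 on the arrays labelled Falcor-null and 16081, 15056 and 12742 on wild-type replicates 1 to 3. Without Scgb3a1, the gene of widest range, they were 22548 to 24600, against 24272, 23351 and 22676. Airway cartilage, a sign of large airway in the sample, had 9 of 13 genes measured and none passing, and summed to 625 to 650 on the arrays labelled Falcor-null and 542 to 707 on the wild-type arrays. The lowest sum, on wild type replicate 3, came from Chad, the brightest gene of the list, of which 6 genes were dim. Chad read 7.72, 7.81 and 7.62 on the arrays labelled Falcor-null and 8.41, 8.22 and 7.25 on the wild-type arrays. Its highest and lowest values were thus both in wild type, as for Muc5b. Without Chad the sums were 406 to 439 on the arrays labelled Falcor-null and 368, 388 and 390 on wild-type replicates 1 to 3. Submucosal gland markers (7 of 9 measured, none passing) summed to 6888 to 9966 on the arrays labelled Falcor-null and 6186 to 8607 on the wild-type arrays, of which the lysozyme gene Lyz1 gave 94.6% to 96.0%. Without Lyz1 they summed to 369 to 421 on the arrays labelled Falcor-null and 380, 447 and 324 on wild-type replicates 1 to 3. Stomach and oesophagus markers (6 of 9 measured, all 6 dim, none passing) summed to 174 to 184 on the arrays labelled Falcor-null and 157 to 171 on the wild-type arrays, so they were not higher in wild type. Tuft cell markers (4 of 6 measured) divided 2 higher and 2 lower. They summed to 182 to 198 on the arrays labelled Falcor-null and 222 to 233 on the wild-type arrays, a separation that Dclk1 alone carried, since without it the sums were 116 to 133 on the arrays labelled Falcor-null and 114 to 120 on the wild-type arrays. Dclk1 differed by -0.65 on the log2 scale and did not pass (limma adjusted p 0.0654).

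Ciliated cell markers (7 of 8 measured, none passing) summed to 2757 to 2899 on the arrays labelled Falcor-null and 2615 to 3342 on the wild-type arrays, and basal cell markers (4 of 7 measured, none passing) to 144 to 153 on the arrays labelled Falcor-null and 136 to 147 on the wild-type arrays. Alveolar type 2 markers (6 of 6 measured, none passing) summed to 38481 to 41051 on the arrays labelled Falcor-null and 38819 to 42373 on the wild-type arrays. Markers of eosinophils, basophils and mast cells had 2 of 8 measured, Prg2 and Epx, both dim, with sums of 55.8 to 59.4 on the arrays labelled Falcor-null and 58.9 to 69.9 on the wild-type arrays. Plasma cell markers summed to 669 to 763 on the arrays labelled Falcor-null and 2317 to 2652 on the wild-type arrays, with 2 of 5 passing as lower. These were Jchain, the chain that joins secreted antibodies (log2 difference -2.78, limma adjusted p 0.000311), and the chaperone Mzb1 (-0.85, adjusted p 0.0147). Mzb1 lost its call without replicate 1 or 2 labelled Falcor-null or wild type replicate 2 (adjusted p 0.0523 to 0.0642). Jchain gave 37.0% to 80.3% of the plasma cell sums. Without Jchain they were 386 to 445 on the arrays labelled Falcor-null and 501 to 522 on the wild-type arrays. The part of any of these lists in the values of the mucus genes was not tested.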

How the data were processed

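Whole-lung RNA of 6 samples was labelled with biotin and hybridised to single-channel arrays, per the labels. The deposited table holds log2 signals, 1 row for each probe set. The tools listed in the submitters' processing notes, with no version, are limma, oligo and RMA, a method that corrects background, equalises the arrays' distributions and summarises probes. Of 24173 probe sets, 17476 had exactly 1 gene symbol in the platform annotation, 1308 had several and 5389 none; only the first were used. For 740 genes with several probe sets the brightest by mean stood for the gene, leaving 16537 genes.

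Groups and replicate numbers came from the sample titles. The 2 groups were compared in limma 3.58.1 (lmFit and eBayes, R 4.3.3), two-sided, without covariates, with Benjamini-Hochberg adjustment over the 16537 genes and a threshold of 0.05. A positive difference means higher on the arrays labelled Falcor-null. With 3 arrays against 3 an exact permutation test cannot go below 0.1. The fit was tested on simulated data. Over all genes, same-numbered samples did not deviate together (correlations of deviations 0.02, -0.0025 and -0.08), so the numbers were not taken as pairs. Those correlations do not describe the members. For Muc5b, Muc5ac, Agr2, Itln1 and Clca1, replicate 3 was the lowest array in both groups, and for the other members it was not.

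The members and the 16 other gene lists were chosen with earlier results of these data known. Named beside the members were every list gene that passed, otherwise up to 4 with the smallest p, and the genes nearest in profile with an official name; other names were chosen after their values were seen. Each member had 1 probe set. Lists were described by counts and medians only. Promoter sequences are RefSeq's. Motif search used Python 3.11.15 and figures matplotlib 3.10.9.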

Additional observations from a re-analysis of the deposited data

How the results depend on the processing

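Itln1 kept its call under the replicate block, array centring, a second quantile normalization, an intensity trend, robust variance and array weights. It also kept its call under averaging of probe sets and testing of every probe set. Leaving out dim probe sets removed Itln1 and 5 other members by construction, and 0 of the 4 members left passed. Members passing numbered 0 to 3 when each array was left out in turn, and 1 at an adjusted p under 0.1. Genes passing numbered 92, against 32 with the replicate block, 280 at an adjusted p under 0.1 and 18 to 89 with each array left out. Of the other lists 5 genes passed, against 2 with the replicate block, Jchain and Chil3, and 1 to 4 with each array left out. The block lowered the SE of every member except Spdef and Gcnt3, for Agr2 from 0.248 to 0.132, and no member but Itln1 passed with it. With the block, B3gnt3, Bpifa1, Ccl17 and Mzb1 had limma adjusted p-values of 0.078, 0.104, 0.0671 and 0.0671. B3gnt3 had 0.0501 after a second quantile normalization. Gcnt3 changed sign after a second quantile normalization (-0.011) and ranged from -0.052 to 0.11 with each array left out, and Spdef from -0.045 to 0.071; both lie near 0. The other 8 members kept their direction under every alternative that tested them. For some alternatives this was fixed in advance. The replicate block, the intensity trend, robust variance and both ways of handling probe sets cannot change a member's difference here. The cause of these changes was not tested. Precision is limited by 3 arrays a group and by the lack of signal over background for dim genes.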

Other observations

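Beside Muc5b and Tff2, 21 other genes read at least 1 log2 unit lower on wild type replicate 3 than on both other wild-type arrays, and those named here were chosen after their values were seen. They included 4 heat shock genes, Hspa1a, Hspa1b, Hsph1 and Hspb1. Hspa1b, an inducible chaperone, read 8.38, 8.90 and 10.24 on the arrays labelled Falcor-null and 10.42, 9.49 and 7.14 on the wild-type arrays. Hspa1a read 7.06, 6.46 and 7.68 on the arrays labelled Falcor-null and 7.37, 7.04 and 5.13 on the wild-type arrays. These near-identical genes cannot be told apart with certainty. Their part in the place of wild type replicate 3 for the mucus genes was not tested.

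Aass, an enzyme of lysine breakdown, was also among them. It read 6.50, 6.75 and 6.46 on the arrays labelled Falcor-null and 8.45, 9.01 and 6.64 on the wild-type arrays, so that wild type replicate 3 lay inside the range of the arrays labelled Falcor-null, as it did for Tff2.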
